A study of Mus musculus with 6 samples.

Results

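Integrins are paired receptors, each made of an α and a β subunit, that tie a cell to matrix proteins and to ligands on other cells. Inside the cell, talin and kindlin switch them on, and a plaque of adaptor proteins, kinases and actin linkers couples them to the cytoskeleton. In the bone marrow, integrins such as α4β1 hold stem and progenitor cells in place, and the β2 and β7 families are restricted to blood cells. The 48 genes described here are 12 integrin subunits and 36 proteins of focal adhesions and of the links from membrane to actin. They were chosen by name, with earlier results of these data known. Of them, 45 were found among the 12161 genes measured, and Tgfb1i1, Parva and Bcar1 were not analysed here.

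Messenger RNA was sequenced from mouse LSK cells, the bone marrow fraction without lineage markers and with Sca1 and Kit that holds blood stem cells and early progenitors. The cells were sorted from wild-type C57BL/6 mice and exposed to a retrovirus on retronectin, a fibronectin fragment that itself binds integrins. Culture in StemPro-34 medium with stem cell factor, Flt3 ligand, IL-6 and a cytokine that the labels write as mL-3 lasted 2 days, and GFP-positive cells were then sorted for RNA. In 3 libraries the virus was MIG, the vector with GFP alone, and in 3 it was MIG-Hhex, which adds the homeobox transcription factor Hhex. The design text calls the libraries of a group biological replicates, named WT3, WT691 and WT703, and each name occurs once with each vector. All 6 cultures shared the coated plates, the cytokines and the virus backbone, so the values describe adhesion genes of cultured, transduced cells and not of fresh LSK cells. The number of mice behind each library is not stated in the labels.

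The deposited values are on a log2 scale and appear to be per unit of gene length. This was read from 64 weakly expressed genes, grouped by a shared difference between the MIG libraries of WT691 and WT703. Pooled over the groups, the log2 value fell by 0.92 for each doubling of transcript length. Within single groups the slope ran from −1.10 to −0.08. Levels of different genes are compared below on this apparent per-length scale only. Library medians lay between 3.56 and 3.60, and the sequencing depth is unknown. Hhex checked the labels, at 5.05 to 5.18 in the MIG libraries and 7.61 to 9.34 in the MIG-Hhex libraries. All 8 listed markers of stem and progenitor cells were measured, and 0 of them passed an adjusted p of 0.05 (limma). Of these, 6 lay lower and 2 higher with MIG-Hhex. Their summed linear values were 412 to 491 with MIG and 338 to 436 with MIG-Hhex. Neutrophil genes were also abundant, with a summed value of 5130 to 5870 with MIG and 4534 to 5758 with MIG-Hhex over 8 measured of 9 listed. Among these, 5 rose (Ngp by 2.08, Cxcr2 by 2.03, Camp by 1.36, S100a9 by 1.12 and Ltf by 0.54) and 1 fell (Mpo by 3.12). The sum therefore covers changes in opposite directions. The 4 B cell markers and the 6 T and NK cell markers listed were not analysed here. Both libraries of replicate WT3 were run on flow cell C3RJFACXX and the other 4 on C5LWPANXX, and the flow cell is a term in every fit unless stated. Of the 45 adhesion genes, 10 had a mean more than 0.5 higher on C5LWPANXX and 2 a mean more than 0.5 higher on C3RJFACXX, against 15.6% and 14.9% of all genes.

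The start regions of the 5 genes called with a difference of at least 1 on the log2 scale are printed here, because Hhex is a DNA-binding factor and the values that follow turn on these genes. Of the 4 windows of Nebl, 1 is shown. The sequences are from RefSeq on GRCm38.p6, each running from 250 bases before to 50 bases after an annotated start site. They are read 5′ to 3′ on the gene's strand. Of the 45 genes, 35 had such a window, and some had several. Capitals mark matches on either strand to 3 motifs: ATTAA, the core bound by Hhex and by many other homeodomain proteins; GAGGAA, a core bound by PU.1 and related ETS factors of blood cells; and the CArG box, which serum response factor binds in many cytoskeletal genes. The 3 motifs do not overlap each other in the windows printed.
Lpxn, chr19:12795943-12796242, plus strand: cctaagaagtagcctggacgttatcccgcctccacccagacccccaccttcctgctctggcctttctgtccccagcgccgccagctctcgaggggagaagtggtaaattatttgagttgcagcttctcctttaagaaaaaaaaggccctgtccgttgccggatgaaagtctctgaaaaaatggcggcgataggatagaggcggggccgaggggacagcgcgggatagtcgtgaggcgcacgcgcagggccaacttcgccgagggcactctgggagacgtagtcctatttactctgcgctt
Vcl, chr14:20929148-20929447, plus strand: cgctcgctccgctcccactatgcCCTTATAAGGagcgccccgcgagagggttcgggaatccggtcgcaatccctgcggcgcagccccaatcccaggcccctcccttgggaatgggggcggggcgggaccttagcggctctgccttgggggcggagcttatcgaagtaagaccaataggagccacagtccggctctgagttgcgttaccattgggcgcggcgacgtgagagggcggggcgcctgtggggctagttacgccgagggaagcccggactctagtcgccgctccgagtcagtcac
Itgb7, chr15:102231886-102232185, minus strand: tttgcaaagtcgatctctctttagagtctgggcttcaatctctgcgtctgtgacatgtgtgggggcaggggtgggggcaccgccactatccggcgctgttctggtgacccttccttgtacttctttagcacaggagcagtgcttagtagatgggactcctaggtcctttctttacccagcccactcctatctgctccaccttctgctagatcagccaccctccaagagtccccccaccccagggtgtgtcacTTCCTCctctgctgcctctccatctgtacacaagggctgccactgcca
Parvb, chr15:84231793-84232092, plus strand: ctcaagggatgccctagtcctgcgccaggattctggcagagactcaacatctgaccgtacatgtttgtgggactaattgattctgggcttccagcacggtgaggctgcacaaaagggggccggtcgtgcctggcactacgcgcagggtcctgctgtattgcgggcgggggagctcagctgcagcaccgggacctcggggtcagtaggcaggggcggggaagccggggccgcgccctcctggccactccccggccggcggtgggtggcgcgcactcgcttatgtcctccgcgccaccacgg
Nebl, chr2:17670116-17670415, minus strand: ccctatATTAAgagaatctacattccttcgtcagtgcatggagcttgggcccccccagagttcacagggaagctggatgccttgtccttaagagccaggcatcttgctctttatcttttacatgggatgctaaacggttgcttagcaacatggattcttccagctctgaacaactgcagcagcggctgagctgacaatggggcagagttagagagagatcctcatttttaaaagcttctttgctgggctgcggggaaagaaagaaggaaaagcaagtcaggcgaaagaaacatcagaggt

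The Vcl window holds a CArG box whose first base lies 227 bases before the start site. Such a match occurs in 3 of the 48 windows of the adhesion genes (6.25%) and in 1.18% of the windows of all measured genes, and the other 2 are in Rsu1 and in 1 of the 4 windows of Nebl. ATTAA occurs in 6 of the 48 windows (12.5%), against 16.4% of the windows of measured genes and 27.1% of all windows. Median GC of these sets of windows was 65.0%, 60.67% and 52.67%, and its part in the shares was not tested. Of the 4 Nebl windows, 3 hold ATTAA, and the printed one has it 244 bases before the start site. The remaining Nebl window, chr2:17731085-17731384 with 72.0% GC, holds none of the 3 motifs. Which Nebl start these cells use was not tested. GAGGAA occurs in 19 of the 48 windows (39.6%), against 26.9% of the windows of measured genes, and the Itgb7 window holds it on the opposite strand just after the start site. The Lpxn and Parvb windows hold none of the 3. A match describes the letters and is not a site, and the windows leave out every distant element.

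With MIG-Hhex, 12 of the 45 adhesion genes rose and 8 fell (limma, adjusted p under the threshold of 0.05). That is 44.4% of them, against 18.0% of all genes measured. By direction, 9.44% of all genes rose and 8.52% fell. The 45 genes were chosen with earlier results of these data known, so their share cannot be read as an excess. All 20 had the same sign in the 3 replicates, as did all 2184 genes called in the whole data, so this does not set the 20 apart. Changes of at least 1 on the log2 scale were seen in Itgb7 and Parvb, which rose (2.78% of all genes rose so far), and in Lpxn, Nebl and Vcl, which fell (2.32% of all genes), against 5.10% of all genes in either direction. The groups of libraries did not overlap for 16 of the 45 genes, in either direction, against 21.2% of all genes. The median difference was 0.07 over the 45 genes and −0.02 over all genes. In whole-population RNA, fewer cells of a type and less RNA per cell cannot be told apart, which holds for every difference below.

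**Figure D1:**
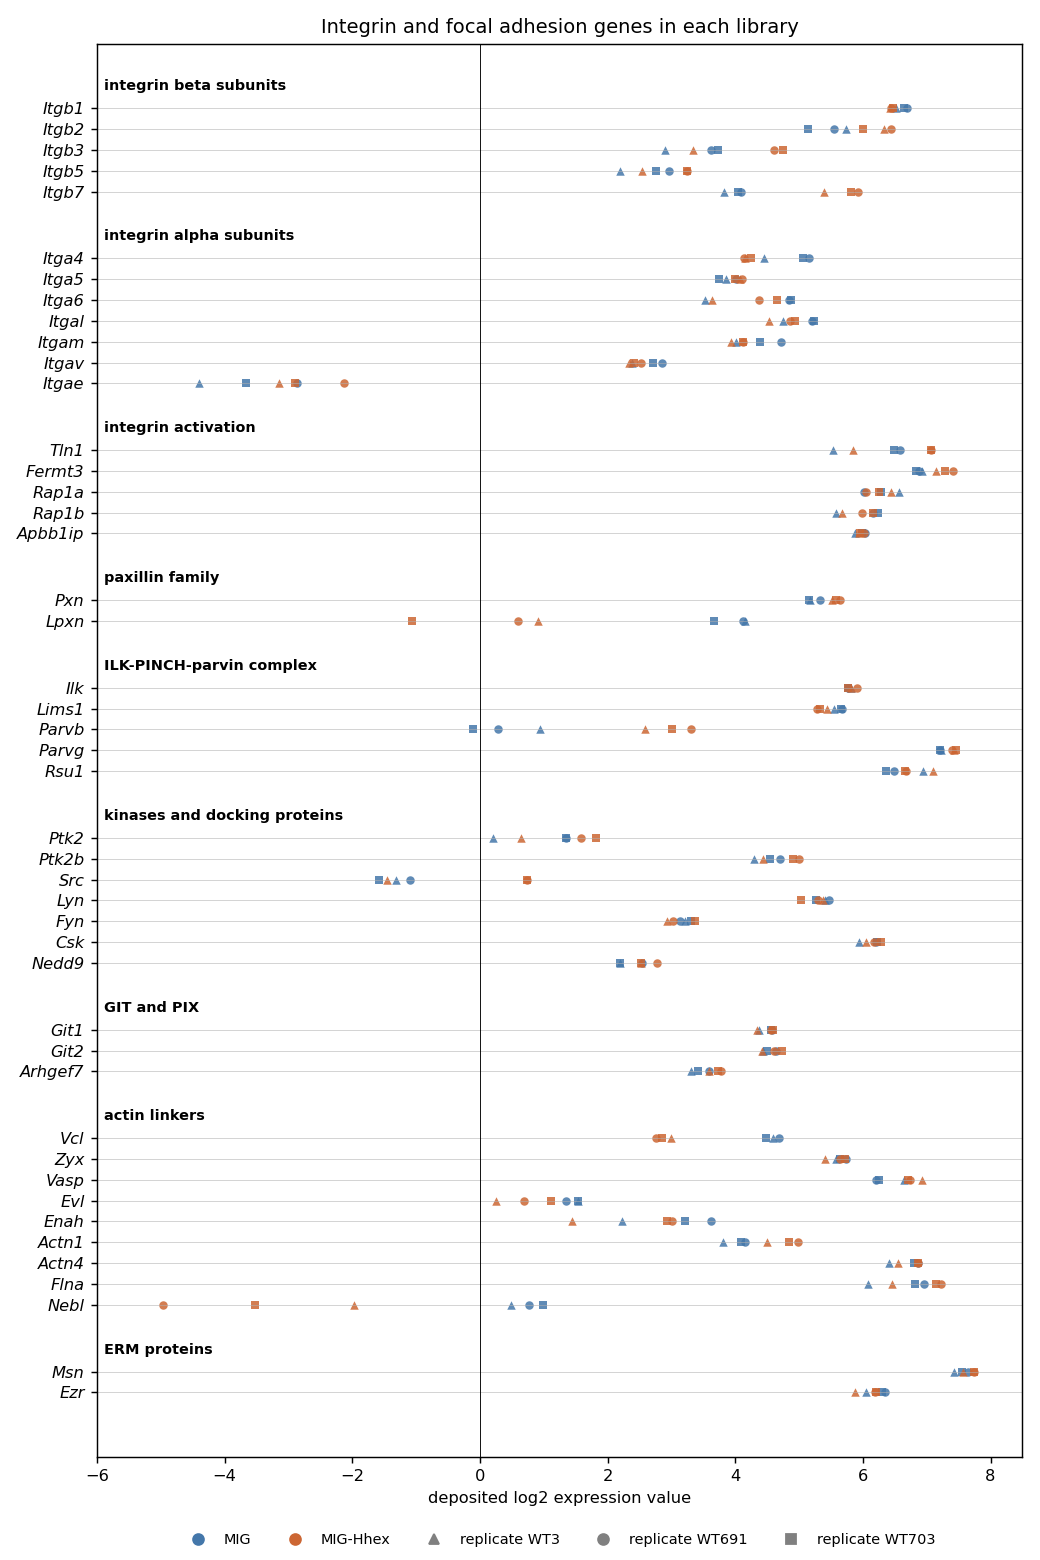
Deposited log2 value (x axis) of the 45 measured genes (y axis, grouped by role) in each of the 6 libraries, with colour for the vector and symbol for the replicate. The MIG-Hhex libraries of Lpxn, Vcl and Nebl lie left of all MIG libraries, those of Itgb7 and Parvb right of them, and the replicate WT3 libraries (triangles) lie lowest with each vector for Itgb3, Tln1 and Flna.

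Of the 20 genes, 4 kept their call under each alternative tried, including 9 fits with a library or a whole replicate removed: Itgb7, Lpxn, Parvb and Vcl. The other 16 calls were lost in at least 1 of these 9 runs, while 0 of the 20 changed sign in any alternative. Dropping the flow cell term from the fit of all libraries left 5 of the 20 called (Itgb7, Parvb, Lpxn, Vcl and Nebl), with 1.78% of all genes called. The term was also dropped in the fits without the MIG or the MIG-Hhex library of WT3, so flow cell differences enter their vector differences. Those fits called 1.9% and 3.08% of all genes, and the ranges over the 9 runs given below include them.

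**Figure D2:**
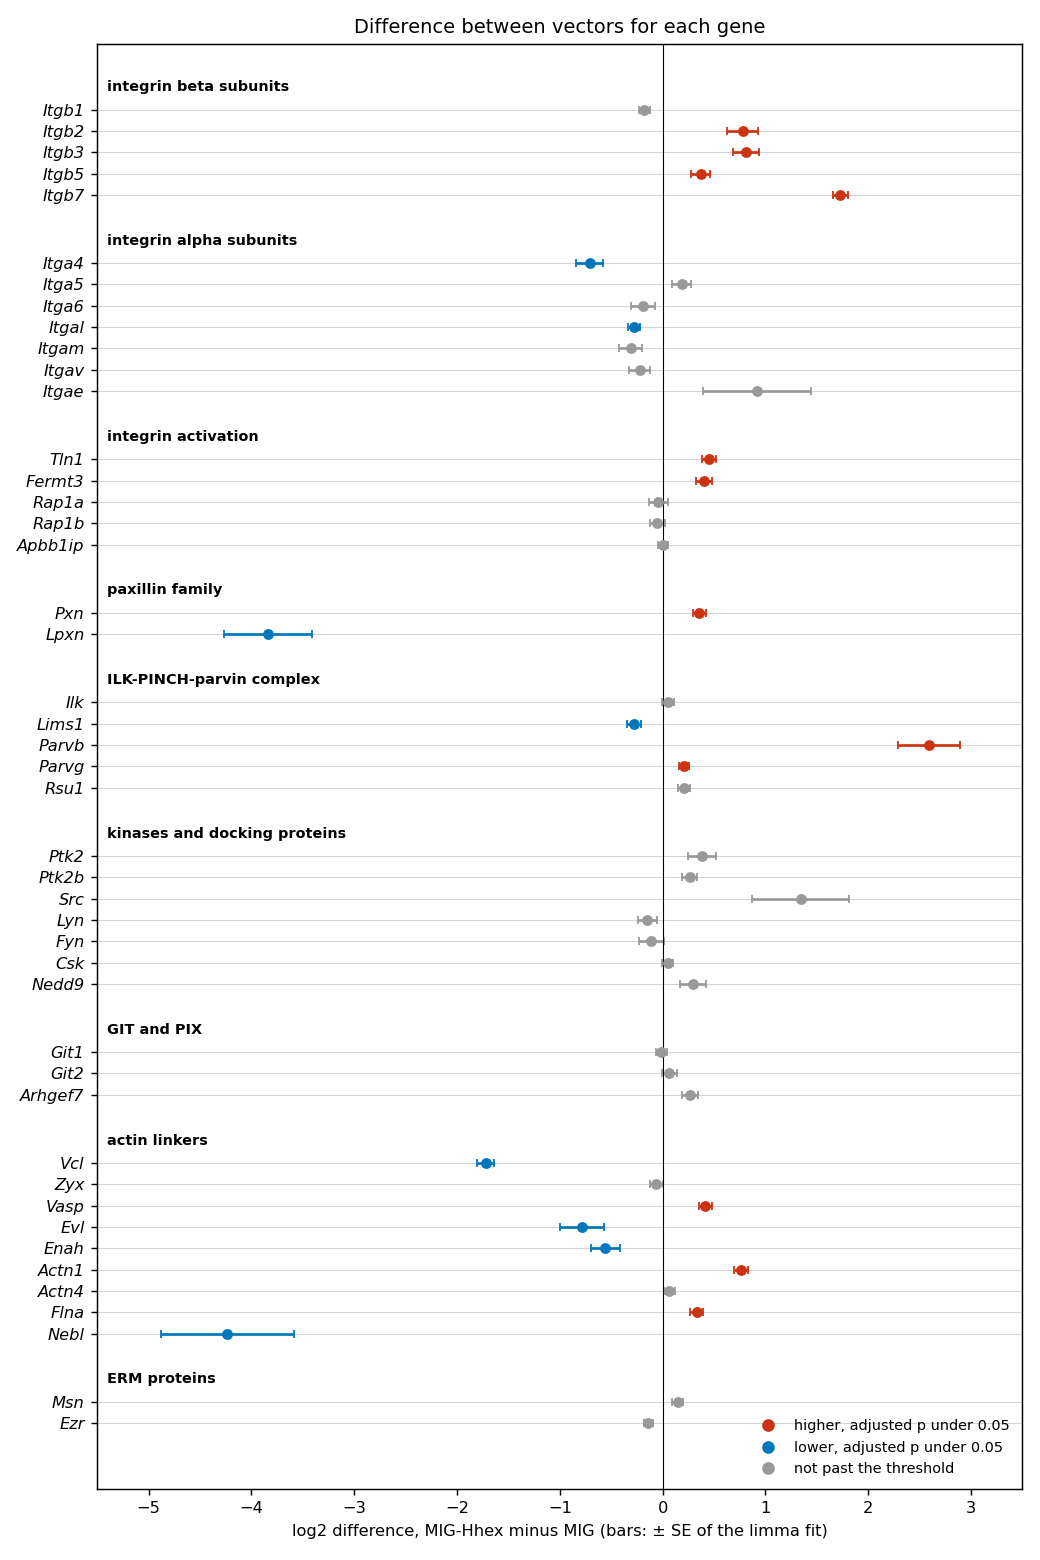
Log2 difference, MIG-Hhex minus MIG (x axis, bars ± SE of the limma fit), for the 45 genes by role (y axis), coloured by whether the adjusted p was under 0.05. Differences run from −4.24 for Nebl to 2.59 for Parvb, the 7 kinases and docking proteins are all grey, and 4 of the 5 β subunits are red.

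Of 5 integrin β subunits measured, 4 rose, 0 fell and Itgb1, which lay lower, did not pass. A sixth, Itgb4, from the wider list described at the end, did not pass either (limma adjusted p = 0.301). The strongest was Itgb7, the β7 subunit of the gut-homing receptor α4β7 and of αEβ7. Its log2 values were 3.82, 4.09 and 4.04 in the MIG libraries of replicates WT3, WT691 and WT703, and 5.38, 5.93 and 5.82 in the MIG-Hhex libraries of the same order. Each MIG-Hhex library lay more than 1 above the highest MIG library. The rise was 3.31-fold (log2 1.73, SE 0.07, limma adjusted p = 0.000397), and 1.56, 1.84 and 1.78 within the 3 replicates. The gene (Entrez ID 16421) spans 102215994 to 102233405 of chromosome 15 in GRCm38.

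Itgb2 encodes the β2 subunit of the leukocyte integrins LFA-1 and Mac-1. It stood at 5.74, 5.55 and 5.14 with MIG and at 6.32, 6.43 and 6.00 with MIG-Hhex, groups that did not overlap. It rose 1.72-fold (log2 0.78, SE 0.15, limma adjusted p = 0.0186). Itgb3, the β3 subunit of the platelet fibrinogen receptor and of the vitronectin receptor, stood at 2.90, 3.62 and 3.73 with MIG and at 3.34, 4.61 and 4.74 with MIG-Hhex. The groups overlapped because both WT3 libraries were low, and the gene was higher with MIG-Hhex within each replicate (0.44, 0.99 and 1.01). The rise was 1.76-fold (log2 0.81, SE 0.12, limma adjusted p = 0.00926).

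Itgb5, the β5 subunit that pairs with αv, rose by 0.37 (SE 0.09, limma adjusted p = 0.0362), from 2.20, 2.96 and 2.76 to 2.54, 3.25 and 3.24. Itgb1, the β1 subunit shared by the fibronectin and laminin receptors, was the most abundant of the 5, at 6.52, 6.69 and 6.65 with MIG and 6.43, 6.43 and 6.48 with MIG-Hhex. Every MIG-Hhex library lay below every MIG library, but the difference of −0.18 (SE 0.05) missed the threshold (limma adjusted p = 0.0614, or 0.0488 once replicate was a block).

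The Itgb2 call was lost without replicate WT3 or either of its libraries, without the MIG library of WT703 and without the MIG-Hhex library of WT691 (limma adjusted p up to 0.167, differences 0.63 to 0.91). Itgb3 was not called without replicate WT703 or with either WT3 library left out (adjusted p up to 0.55, differences 0.55 to 1.26). Itgb5 was called in 0 of the 9 runs (adjusted p up to 0.791, differences 0.15 to 0.61).

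**Figure D3:**
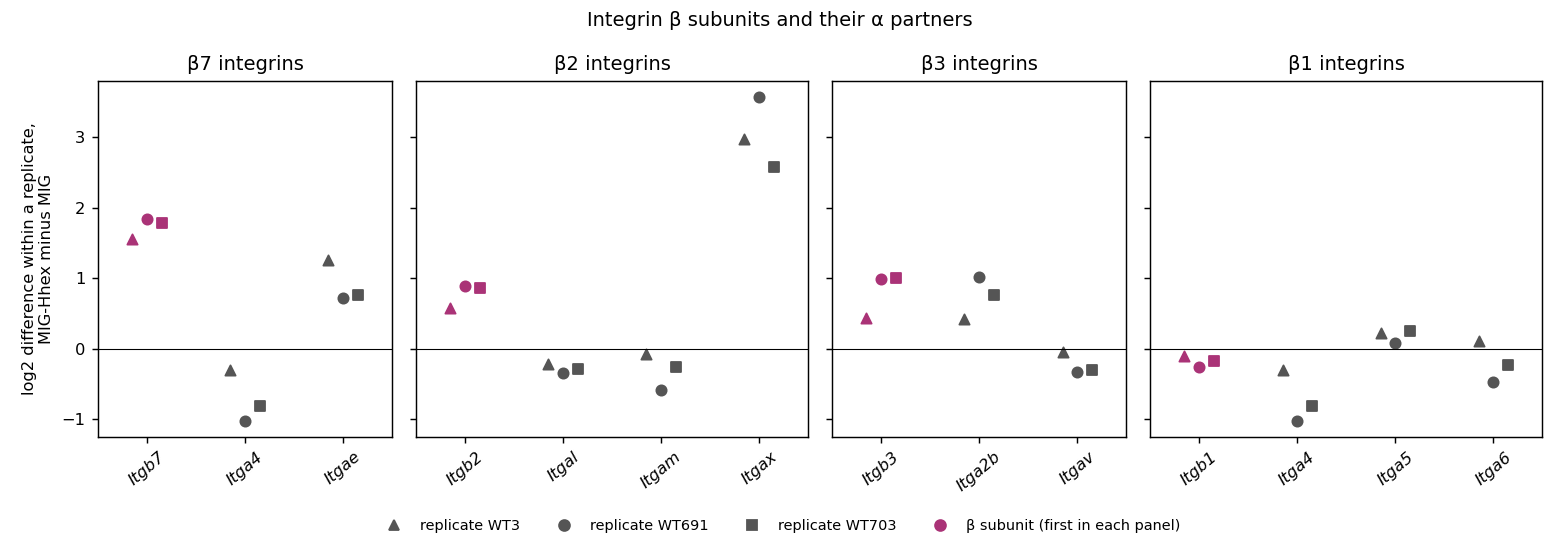
Log2 difference within each replicate, MIG-Hhex minus MIG (y axis), for 4 β subunits (purple, first in each panel) and genes of their α partners (x axis), with a symbol for each replicate. Itgb7 lies between 1.56 and 1.84 while Itga4 lies between −1.02 and −0.30, and Itgax lies between 2.58 and 3.57 beside Itgal and Itgam, which are below 0 in each replicate.

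The 7 α subunits measured gave 0 rises, 2 falls and 5 without a call. Itga4, the α4 subunit that pairs with β1 in the VCAM-1 receptor VLA-4 and with β7 in α4β7, stood at 4.44, 5.16 and 5.06 with MIG and at 4.15, 4.14 and 4.25 with MIG-Hhex. The groups did not overlap, and the gene fell 1.63-fold (log2 −0.71, SE 0.13, limma adjusted p = 0.0153). The fall was smallest in replicate WT3, at −0.30 against −1.02 and −0.81. Itgae, the αE subunit and the other partner of β7, stayed near the bottom of the range, between −4.40 and −2.14 in the 6 libraries, and its difference of 0.92 (SE 0.53) missed the threshold (limma adjusted p = 0.266).

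Among the partners of β2, Itgal, the αL subunit of LFA-1, fell by 0.28 (SE 0.06, limma adjusted p = 0.0198), from 4.74, 5.20 and 5.23 to 4.53, 4.86 and 4.94. Itgam, the αM subunit of Mac-1 and a marker of granulocytes and monocytes, had a difference of −0.31 (SE 0.11, limma adjusted p = 0.104) and is not called, with MIG values of 4.01 to 4.71 and MIG-Hhex values of 3.93 to 4.12. Of its exonic bases, 68.7% are also annotated in GENCODE to the same-strand model Gm49368. Whether Gm49368 was among the gene models used for counting is not known here, so the Itgam count may be uncertain. Itgax, the αX subunit CD11c of dendritic cells and macrophages, starts 11034 bases beyond the end of Itgam on chromosome 7 and was not among the 48 genes. It stood at −1.66, −0.89 and −0.31 with MIG and at 1.32, 2.69 and 2.27 with MIG-Hhex, a rise of 3.04 (SE 0.22, limma adjusted p = 0.00118), or 1.79 with a pseudocount of 1 on the linear scale. These neighbours thus gave differences of opposite sign, and the difference between them was not tested. The monocyte and macrophage markers listed had 2 rises and 2 falls among 8 measured, with summed linear values of 164 to 205 with MIG and 119 to 206 with MIG-Hhex. Of the dendritic cell markers, 3 of 6 were measured, and 2 of them rose, Itgax itself and Zbtb46 (1.61, limma adjusted p = 0.0433), the latter below 0 in every library. Their summed values, carried mostly by Flt3, which is not called, were 7.70 to 32.7 and 9.05 to 28.5. Of 8 mast cell and basophil markers, 4 fell (Cpa3 by 2.19, Mcpt8 by 1.12, Ms4a2 by 1.52 and Cd200r3 by 3.62) and 1 rose (Hdc by 1.35), with summed values of 221 to 473 with MIG and 188 to 319 with MIG-Hhex. Of 6 erythroid markers, 2 rose (Hba-a1 by 3.77 and Klf1 by 1.21) and 1 fell (Tfrc by 0.29), with summed values of 135 to 178 and 129 to 147. Of 2 measured stromal markers, Pdgfrb rose and Col1a2 lay below 0 in every library, with summed values of 3.44 to 4.80 and 6.97 to 11.3, and of 4 endothelial markers 0 were called. What part changes in cell types had in the integrin values was not tested.

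Of the partners of β3, Itgav, the αv subunit, had a difference of −0.22 (SE 0.11, limma adjusted p = 0.185) and is not called. Itga2b, the platelet αIIb subunit, which was not among the 48 genes and was picked here because it pairs with β3, rose by 0.73 (SE 0.18, limma adjusted p = 0.0389), a call kept in 2 of the 9 runs, without replicate WT691 or its MIG library (otherwise up to 0.484). The megakaryocyte and platelet markers listed, 8 measured of 9, had summed values of 43.4 to 74.9 with MIG and 38.6 to 51.4 with MIG-Hhex, with 1 rise (Gp9) and 1 fall (Pf4). Their part in the β3 and αIIb values was not tested. Itga5, the fibronectin receptor subunit, and Itga6, a laminin receptor subunit, had differences of 0.18 and −0.19 without a call (limma adjusted p = 0.194 and 0.296). Itga6 was 1.10 higher on flow cell C5LWPANXX than on C3RJFACXX.

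Leaving out data touched both α calls. Itga4 was not called without replicate WT691 or WT703, without the MIG library of WT703, nor without any single MIG-Hhex library (limma adjusted p up to 0.207, differences −0.93 to −0.55). Itgal stayed called only without replicate WT3 (adjusted p = 0.0486), and otherwise ran up to 0.693, with differences of −0.44 to −0.16.

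Of 5 genes that switch integrins on from inside, 2 rose and 3 did not pass. Tln1 encodes talin 1, which binds β tails and links them to actin. It stood at 5.54, 6.58 and 6.49 with MIG and at 5.84, 7.06 and 7.07 with MIG-Hhex. The groups overlapped only through the MIG-Hhex library of WT3, and the rise of 0.45 (SE 0.07, limma adjusted p = 0.00780) was seen in each replicate. Fermt3, kindlin-3 of blood cells, which binds β tails together with talin, stood at 6.93, 6.89 and 6.83 with MIG and at 7.15, 7.42 and 7.28 with MIG-Hhex. It rose by 0.40 (SE 0.08, limma adjusted p = 0.0177) with no overlap. The small GTPases Rap1a and Rap1b and the adaptor Apbb1ip (RIAM), which recruit talin to the membrane, had differences of −0.04, −0.05 and 0.00 with standard errors of 0.09, 0.07 and 0.05. The Tln1 call was lost without replicate WT703 or either WT3 library (adjusted p up to 0.894). Its difference ran from 0.12 to 0.86 over the 9 runs. Both ends came from runs without 1 WT3 library, which had no flow cell term, and Tln1 was 1.11 higher on C5LWPANXX. The Fermt3 call was kept in 2 of the 9 runs, without replicate WT3 and without the MIG library of WT691, and otherwise lost (adjusted p up to 0.15).

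The 2 measured members of the paxillin family changed in opposite directions. Lpxn encodes leupaxin, the member of blood cells and osteoclasts. It stood at 4.15, 4.12 and 3.66 with MIG and at 0.90, 0.59 and −1.06 with MIG-Hhex. The groups were far apart, with the nearest libraries at 3.66 and 0.90. The fall was 14.3-fold (log2 −3.84, SE 0.43, limma adjusted p = 0.00340), and −3.25, −3.53 and −4.72 within the replicates. Its size ranked 20th of all 12161 genes by absolute difference. Pxn encodes paxillin, the scaffold of focal adhesions that is closely related to leupaxin. It stood at 5.17, 5.33 and 5.16 with MIG and at 5.52, 5.64 and 5.58 with MIG-Hhex, a rise of 0.36 (SE 0.06, limma adjusted p = 0.0137). On the per-length scale, Pxn was already above Lpxn in every MIG library, and the gap was wider in every MIG-Hhex library.

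In GRCm38, Lpxn spans 12795887 to 12833813 of chromosome 19. Its first 237 bases overlap the span of Zfp91, a zinc finger gene. Zfp91 had a difference of −0.27 (SE 0.05, limma adjusted p = 0.0200). The Pxn call was lost without replicate WT3 or either of its libraries, without the MIG-Hhex library of WT691 and without replicate WT703 (adjusted p up to 0.195), with differences of 0.31 to 0.41. With the GC trend removed the Pxn difference was 0.24, still called.

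**Figure D4:**
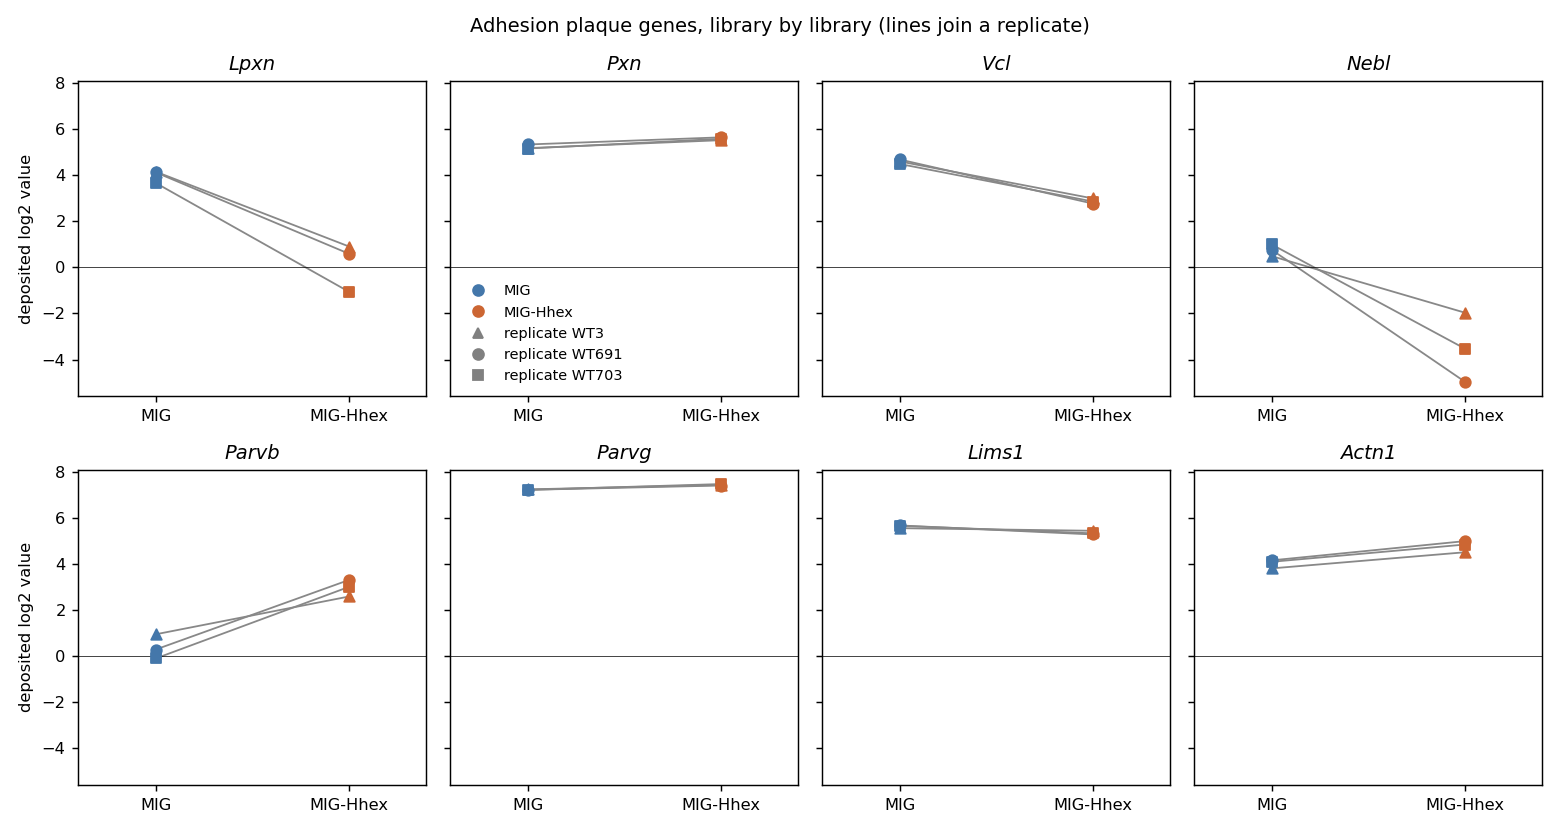
Deposited log2 value (y axis) of 8 adhesion plaque genes in MIG and MIG-Hhex libraries (x axis), with lines joining the libraries of a replicate. Lpxn falls from 3.66 to 4.15 to between −1.06 and 0.90, Vcl from 4.49 to 4.68 to between 2.76 and 2.99, Nebl falls below 0, Parvb rises from −0.10 to 0.95 to between 2.59 and 3.30, and Pxn, Parvg, Lims1 and Actn1 change by less than 1.

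The complex of integrin-linked kinase (Ilk), PINCH (Lims1) and parvin links β tails to actin, and 5 of its 6 listed genes were measured. Of these, 2 rose, 1 fell and 2 did not pass. Parvb, β-parvin, stood at 0.95, 0.29 and −0.10 with MIG and at 2.59, 3.30 and 3.01 with MIG-Hhex, without overlap. The rise was 6.02-fold (log2 2.59, SE 0.30, limma adjusted p = 0.00405), with 1.64, 3.02 and 3.11 within the replicates. Its neighbour Parvg, γ-parvin, the parvin of blood cells, starts 8485 bases beyond the end of Parvb on chromosome 15. It was far more abundant, at 7.21 to 7.23 with MIG and 7.40 to 7.46 with MIG-Hhex, and rose by 0.21 (SE 0.05, limma adjusted p = 0.0336). The adjacent parvin genes therefore both rose, and the difference between their rises was not tested.

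Lims1 encodes PINCH1, the adaptor between the kinase and its partners. It fell by 0.28 (SE 0.07, limma adjusted p = 0.0342), from 5.55, 5.67 and 5.65 to 5.44, 5.28 and 5.33. Ilk was level, at 5.76 to 5.82 with MIG and 5.77 to 5.91 with MIG-Hhex (difference 0.05, SE 0.06). Rsu1, a Ras suppressor that binds PINCH1, had a difference of 0.21 (SE 0.06, limma adjusted p = 0.0515) and is called only in some alternatives (0.0326 once replicate was a block). Of the exonic bases of Ilk, 89.7% are also annotated to Rrp8 or Taf10 on the opposite strand. Rrp8 fell by 0.30 (SE 0.06, limma adjusted p = 0.0164), and Taf10 had a difference of 0.03 (limma adjusted p = 0.828). That share merges the exons of all GENCODE isoforms, whereas the RefSeq spans of Ilk and Rrp8 share 796 bases. The labels do not say whether counting used strand, so reads in the shared bases may not be told apart. The Parvg call was kept in 0 of the 9 runs (adjusted p up to 0.371) and the Lims1 call in 1 of them, without replicate WT3 (otherwise up to 0.198).

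Kinases and docking proteins of adhesions did not pass in any of 7 measured cases. Ptk2 (focal adhesion kinase) and its blood-cell relative Ptk2b (Pyk2) had differences of 0.38 (SE 0.14) and 0.26 (SE 0.07), with limma adjusted p = 0.102 and 0.0541; Ptk2b was called once replicate was a block (0.0291). On the per-length scale Ptk2b was higher than Ptk2 in every library, at 4.30 or more against 0.21 to 1.82. Src, the founding kinase of its family, stood at −1.32, −1.09 and −1.59 with MIG and at −1.46, 0.74 and 0.74 with MIG-Hhex. Its WT3 libraries differed little and the other 2 replicates rose together, and the difference of 1.34 (SE 0.47) missed the threshold (limma adjusted p = 0.0993). Without replicate WT3 it was 2.08 and passed (adjusted p = 0.0184), and likewise without the MIG-Hhex library of WT3 (0.0259). The far more abundant Lyn, a main Src-family kinase of myeloid cells, had a difference of −0.15 (SE 0.09), Fyn −0.11 (SE 0.12), Csk, which switches Src kinases off, 0.05 (SE 0.05), and the docking protein Nedd9 0.29 (SE 0.13).

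The GIT and PIX scaffolds, which bring Rac and Cdc42 activators to paxillin, gave 0 calls among 3 measured. Git1 and Git2 had differences of −0.01 (SE 0.05) and 0.07 (SE 0.07). Arhgef7 (β-PIX) was higher in every MIG-Hhex library, at 3.59, 3.78 and 3.73 against 3.31, 3.58 and 3.41, but its difference of 0.27 (SE 0.08) missed the threshold (limma adjusted p = 0.0558, or 0.0340 once replicate was a block). Of the 25 adhesion genes without a call, 9 had an unadjusted p under 0.05. The matching share of all genes was not counted, so the 9 cannot be read as an excess.

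Of 9 actin linkers measured, 3 rose and 4 fell. Vcl encodes vinculin, which binds talin and actin and reinforces an adhesion under load. It stood at 4.60, 4.68 and 4.49 with MIG and at 2.99, 2.76 and 2.86 with MIG-Hhex. Spread within each vector was small beside the gap between them. Vcl fell 3.29-fold (log2 −1.72, SE 0.08, limma adjusted p = 0.000528), by −1.61, −1.92 and −1.63 within the replicates. The gene spans 20929383 to 21033676 of chromosome 14 in GRCm38, and 25.5% of its exonic bases are also annotated to Ap3m1 on the opposite strand. Ap3m1 itself had a difference of −0.06 (SE 0.06, limma adjusted p = 0.488).

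Nebl encodes nebulette, an actin-binding protein of Z-discs, and from another start a LIM-domain form found in focal adhesions. It stood at 0.49, 0.76 and 0.99 with MIG and at −1.97, −4.97 and −3.53 with MIG-Hhex. The groups did not overlap, and the MIG-Hhex libraries spread over 3 log2 units. The difference was −4.24 (SE 0.65, limma adjusted p = 0.00910). Its size is uncertain at such low values, and with a pseudocount of 1 on the linear scale it was −1.26, still past the threshold. The values do not separate the 2 forms. The call was lost without replicate WT703 or the MIG library of WT3 (adjusted p up to 0.08).

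The Ena/VASP proteins, which lengthen actin filaments at adhesions, split. Vasp rose by 0.42 (SE 0.06, limma adjusted p = 0.00815), from 6.65, 6.21 and 6.25 to 6.92, 6.74 and 6.71, without overlap. Evl fell by 0.79 (SE 0.21, limma adjusted p = 0.0492), from 1.54, 1.34 and 1.54 to 0.26, 0.69 and 1.11, also without overlap. Enah (Mena) fell by 0.56 (SE 0.14, limma adjusted p = 0.0389), from 2.22, 3.63 and 3.21 to 1.44, 3.02 and 2.93, with both WT3 libraries low. Vasp was the most abundant of the 3 in every library on the per-length scale. The Vasp call was lost without replicate WT703 or either WT3 library (adjusted p up to 0.34). The Evl call was kept in 1 of the 9 runs, without the MIG-Hhex library of WT703, and was lost when only genes with a mean above 0 were tested, and the Enah call was kept in 1 run, without the MIG library of WT703 (adjusted p up to 0.283 and 0.965). Over the 9 runs the Enah difference ran from −0.96 to −0.05, largest without the MIG library of WT3 and smallest without the MIG-Hhex library of WT3.

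Actn1, α-actinin 1, which crosslinks filaments at adhesions, rose 1.70-fold (log2 0.76, SE 0.07, limma adjusted p = 0.00176), from 3.80, 4.15 and 4.09 to 4.51, 4.99 and 4.84. Its groups did not overlap, and the call was lost in 1 of the 9 runs (adjusted p = 0.123). That run lacked the MIG library of WT3 and so had no flow cell term. Actn4, the more abundant α-actinin 4, was level (0.07, SE 0.05). Flna, filamin A, which binds β tails in competition with talin, rose by 0.33 (SE 0.06, limma adjusted p = 0.0145), from 6.07, 6.95 and 6.82 to 6.46, 7.23 and 7.15, with the WT3 libraries low. Its call was kept in 3 of the 9 runs, without the MIG library of WT691, the MIG-Hhex library of WT703 or replicate WT691 (otherwise adjusted p up to 0.92), and the difference ran from 0.06 to 0.57. Zyx, zyxin, which recruits Ena/VASP proteins, did not pass (−0.06, SE 0.06). Nor did the ERM proteins Msn (moesin) and Ezr (ezrin), which tie membrane receptors to cortical actin, with differences of 0.15 (SE 0.05) and −0.14 (SE 0.05). Msn was the most abundant of the 45 genes by its mean over both groups.

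**Figure D5:**
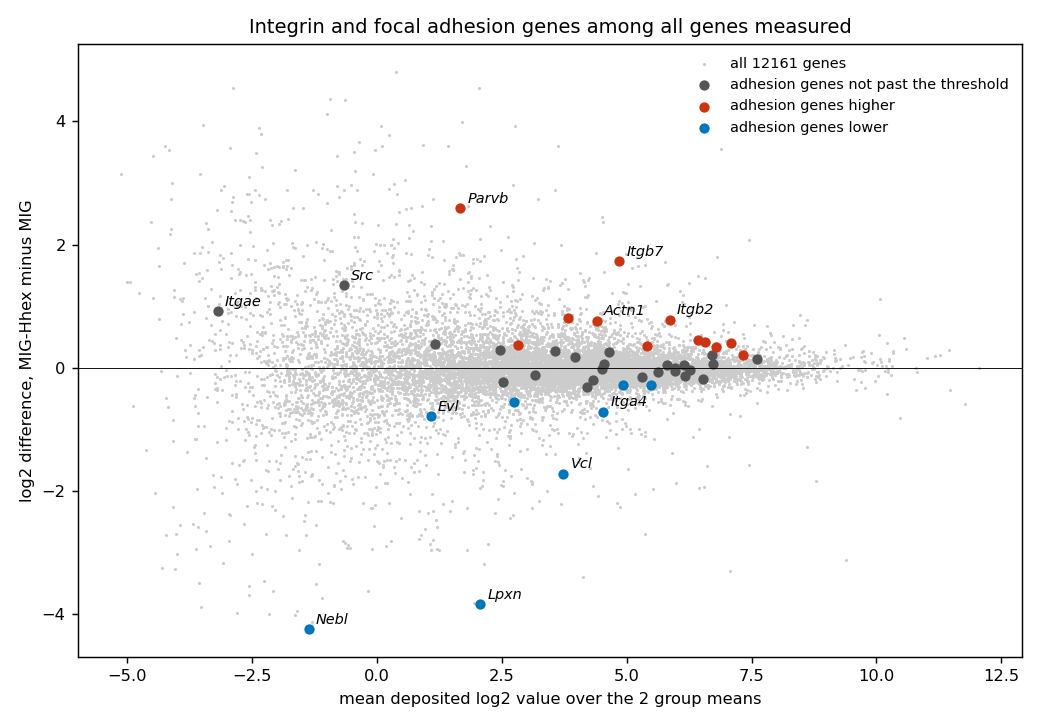
Log2 difference, MIG-Hhex minus MIG (y axis), against mean deposited log2 value (x axis) for all 12161 genes (grey) and for the 45 integrin and focal adhesion genes (coloured by call). Lpxn at −3.84, Nebl at −4.24 and Vcl at −1.72 are the lowest of the 45, and Parvb at 2.59 and Itgb7 at 1.73 the highest.

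A wider set of 136 other adhesion genes, listed by function, was counted in the same fit. Of 113 measured, 32 rose and 14 fell, together 40.7%, against 18.0% of all genes, with a median difference of 0.16. This set too was chosen with earlier results of these data known, so its share cannot be read as an excess. Of 8 other integrin subunits measured, 4 rose and 1 fell. Besides Itgax, the laminin receptor subunit Itga3 rose by 2.83 (SE 0.47) and Itga9, a subunit of a tenascin and VCAM-1 receptor, by 1.91 (SE 0.45), both from MIG means below −3. The collagen receptor subunit Itga1 fell by 1.50 (SE 0.38). At such low levels the sizes are uncertain: with a pseudocount of 1 on the linear scale the differences were 0.44, 0.35 and −0.89, all still called. Itga3 lost its call in 5 of the 9 runs, Itga9 in 8 and Itga1 in 7 (limma adjusted p up to 0.0643, 0.261 and 0.288), and Itgax in 1, without the MIG library of WT3 (0.0507).

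Integrin ligands and counter-receptors moved both ways, with 5 rises and 3 falls among 20 measured. Spp1, osteopontin, a ligand of αv and α4 integrins, stood at 5.35, 6.08 and 6.30 with MIG and at 6.85, 8.03 and 8.26 with MIG-Hhex, a 3.49-fold rise (log2 1.80, SE 0.12, limma adjusted p = 0.000960). Fn1, fibronectin, the ligand of α5β1 and α4β1, stood at 3.91, 3.80 and 2.93 with MIG and at 2.17, 1.03 and 0.38 with MIG-Hhex, a 5.12-fold fall (log2 −2.36, SE 0.31, limma adjusted p = 0.00545). The groups did not overlap for either gene. The basement membrane collagen Col4a2 rose by 1.20 and the junctional LFA-1 ligand F11r by 0.91, while the matrix protein Thbs1 fell by 0.58 and the LFA-1 ligand Icam2 by 0.27. Without the MIG library of WT3, and so without the flow cell term, the calls of Spp1, Fn1, Col4a2, F11r and Thbs1 were lost (limma adjusted p = 0.147, 0.127, 0.689, 0.248 and 0.339). The last 3 were also lost without the MIG-Hhex library of WT3 and Col4a2 without replicate WT703, and Icam2 kept its call in 1 run, without the MIG-Hhex library of WT703. Over the 9 runs the differences ran from 0.59 to 1.93 for Col4a2, from −1.15 to −0.03 for Thbs1 and from −0.54 to −0.03 for Icam2.

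Among 20 measured genes that activate or restrain integrins, 6 rose and 0 fell. Rap1gap2, which switches Rap1 off, rose by 2.24 (SE 0.29; 0.81 with the pseudocount), the adaptor Dok2 by 1.21 (SE 0.09) and the tetraspanin Tspan32, which associates with β3 integrin in platelets, by 0.80 (SE 0.11). Of 33 adhesion signalling genes, 9 rose and 5 fell. The Src-family kinase Fgr rose by 1.31 (SE 0.19), the Rac effector Pak1 by 0.86 (SE 0.12) and the docking adaptor Sh2d3c by 0.63 (SE 0.08). Ptpn12, the phosphatase PTP-PEST that acts on p130Cas and paxillin partners, fell by 1.07 (SE 0.08, limma adjusted p = 0.00137), from 5.11, 5.40 and 5.44 to 4.00, 4.22 and 4.51, and Vav3 and Elmo1, which activate Rac, fell by 0.61 and 0.41. Of 32 other actin-linking and LIM proteins, 8 rose and 5 fell. Tns1 (tensin 1) rose by 1.02, Pdlim2 by 0.55 and Cnn2 (calponin 2) by 0.30, while Pdlim5 fell by 0.91 (SE 0.08), Limd1 by 0.31 and Tes by 0.28. Of the genes named in this paragraph, Dok2, Ptpn12 and Pdlim5 kept their call in all 9 runs. Each of the others lost it in at least 1 run, and Tes in all 9 (limma adjusted p up to 0.286), while the Cnn2 difference ran from 0.12 to 0.53.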

How the data were processed

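The authors deposited 1 log2 expression value per Entrez gene and library. The submitters' processing notes name edgeR, limma, featureCounts and Subread and build mm10, with versions and normalization not given in the sources used here. Read counts were not recovered, so depth is unknown, no counting interval is given and no count model was run. A filter (above the library minimum in 3 libraries) removed 0 of 12161 genes. In R 4.3.3, limma 3.58.1 fitted vector and flow cell to all genes, followed by eBayes with trend. The p-values were two-sided and Benjamini-Hochberg adjusted over all genes. The script was tested on simulated data with independent noise in each library, which leaves out the pairing of libraries by replicate. Differences are MIG-Hhex minus MIG.

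Replicate names pair the libraries: deviations from the group means correlated at 0.742 (WT3), 0.585 (WT691) and 0.656 (WT703), and the paired fit is given where it changes a call. Coordinates are RefSeq GRCm38.p6 (12052 genes matched by Entrez ID), and exon overlaps are from GENCODE M21. The genes and lists were chosen with earlier results of these data known. All 45 measured genes are accounted for, and each other list names up to 3 called genes per direction with the smallest p. In runs without 1 library of WT3 the flow cell term was dropped. Removal of GC or transcript length trends was added after seeing the data. No unused column of per-sample values was present.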

Additional observations from a re-analysis of the deposited data

How the results depend on the processing

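Counts of called genes moved with the flow cell term and with the libraries used. Without the term, 119 genes were higher and 98 lower, of the adhesion genes 2 and 3, and of the other adhesion genes 5 and 2. With flow cell C5LWPANXX alone, 698 and 519 of all genes were called. Without the variance trend, 638 genes were lower, with 3 of the adhesion genes and 8 of the other adhesion genes lower. That setting lost 8 of the 20 calls (Itgb2, Itga4, Itgal, Fermt3, Lims1, Parvg, Evl and Enah). Leaving out a library or replicate gave 140 to 835 higher and 91 to 634 lower genes, 2 to 10 and 2 to 6 adhesion genes, and 3 to 25 and 3 to 11 other adhesion genes, the fewest mostly where 1 library of WT3 was left out and the flow cell term dropped. The replicate block gave 15 higher and 9 lower adhesion genes, with 24.5% of all genes called. It added Itgb1, Rsu1, Ptk2b and Arhgef7 and changed no other call of the 45. Quantile normalization, median centring, the pseudocount and the length correction kept all 20 calls; the GC correction lost Itgb5 and Lims1, and testing only genes with a mean above 0 lost Evl and left Nebl untested. The GC and length corrections were chosen after seeing the data. Sign changes were limited to genes without a call. With the GC trend removed, Rap1a was at 0.098, Rap1b at 0.086, Ilk at −0.018, Csk at −0.048 and Actn4 at −0.011. Apbb1ip was at −0.027 with C5LWPANXX alone and at −0.0037 after centring. Left-out runs ranged from −0.64 to 0.099 for Itga6, −0.14 to 0.094 for Rap1a, −0.26 to 0.081 for Rap1b, −0.043 to 0.028 for Apbb1ip, −0.046 to 0.11 for Csk, −0.078 to 0.064 for Git1, −0.022 to 0.15 for Git2, −0.13 to 0.031 for Zyx and −0.072 to 0.17 for Actn4. The cause of these changes was not tested. Sizes for genes below 0 are the least certain, because what was added before the logarithm is not stated.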
